A study of Mus musculus with 12 samples.

Results

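The Ube2 genes encode the ubiquitin-conjugating (E2) enzymes of the mouse. They were taken as every protein-coding gene of the GENCODE vM39 annotation whose symbol begins with Ube2, which gave 38 of the 21738 protein-coding genes. Each was read at its promoter, defined as 2 kb on each side of the start site (TSS) of its canonical transcript on GRCm39, in 12 lists of chromatin peaks. The rule itself uses no measured value, though it was chosen with earlier results of these data known.

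Ubiquitin is activated by an E1 enzyme, passed to the active-site cysteine of an E2 and then attached to a substrate with the help of an E3 ligase, and the E2 often decides which kind of chain is built. Several E2 enzymes act on chromatin: members of the UBE2D family and UBE2E1 work with Polycomb repressive complex 1, the E3 ligase that places ubiquitin on histone H2A (the mark H2AK119ub), and UBE2A and UBE2B place ubiquitin on histone H2B. BAP1 is the enzyme that takes ubiquitin off histone H2A, with ASXL1 as its cofactor, and UBE2O is known to ubiquitinate BAP1 itself.

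All libraries came from c-Kit+ mouse bone marrow cells, which the labels call haematopoietic stem and progenitor cells of mock genotype; strain and age are not given in the sources used here. Every condition, the vector controls included, carried a retrovirus for HA-tagged BAP1, so no library had BAP1 at its native level alone. A second retrovirus carried ASXL1 residues 1 to 590 (1-590), its condensation-impaired form 10RA, its condensation-defective form 25RA or no insert (vector). In a further set it carried ASXL1 residues 1 to 1067 (1-1067), its charge-neutralized forms 34DN and 36EQ, or no insert. H2AK119ub was profiled in these 8 conditions by CUT&RUN, where an antibody directs a nuclease to cut out the marked chromatin. ChIP-seq of BAP1 and of ASXL1 covered 1-590 and 10RA. There was 1 library per condition, so no difference between libraries could be tested against replicate error, and counts of Ube2 genes are given beside the share of all genes called the same way. Marker expression of the cells could not be checked in peak lists, and fewer cells carrying the mark cannot be told apart from less of it per cell. In the lists titled 25RA, 34DN and 36EQ the peaks are named with codes of other constructs, and the titles are followed here.

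Depth differed between the libraries and touches every comparison below. The lowest local background of a library, in fragments per base, served as its genome background: 0.908 in vector, 2.06 in 1-590, 1.72 for 10RA and 1.86 for 25RA. These lists held 20124, 32495, 28228 and 33863 peaks on chromosomes 1 to 19, X and Y. The 4 H2AK119ub lists of the 1-1067 set held 5307 to 6310 peaks at a genome background of 2.17 to 2.92, and the 4 ChIP lists held 3572 to 8370 peaks. A fold is the authors' own value, the pileup plus 1 at the summit over the local background plus 1, and it ranks peaks within a list. To set libraries side by side, the summit fragments recovered from each fold and p were divided by the genome background of the library, which is called the level here. Fragment counts given for single genes are not scaled for depth. Being relative to the background of its own library, a level cannot show a change of the mark over the whole genome.

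Promoter sequences are shown for 9 Ube2 genes, chosen among those with peaks in 4, 3 or 0 libraries of the 1-590 set, with every CpG in capitals since CpG content goes with the number of libraries listed. Each is the nearest 200 bases before the TSS, 5′ to 3′ on the gene's strand in GRCm39, that touch no annotated exon and end at most 50 bases from the TSS, a condition that 15 of the 38 genes met. Ube2o, Ube2t, Ube2z and Ube2v2 had a promoter peak listed in each library of the 1-590 set, that of Ube2z in vector at q above 0.05. The stretches lie at chr11:116472378-116472577 (minus strand), chr1:134890075-134890274 (plus strand), chr11:95956245-95956444 (minus strand) and chr16:15412396-15412595 (minus strand), and they hold 17, 18, 12 and 5 CpG. Not every peak reaches its stretch. In this order of genes, vector peaks cover 25, 79, 0 and 16 bases and 1-590 peaks 29, 200, 200 and 7. The 10RA peaks cover 5, 103, 185 and 0 bases, and the 25RA peaks 62, 200, 200 and 157.
Ube2o: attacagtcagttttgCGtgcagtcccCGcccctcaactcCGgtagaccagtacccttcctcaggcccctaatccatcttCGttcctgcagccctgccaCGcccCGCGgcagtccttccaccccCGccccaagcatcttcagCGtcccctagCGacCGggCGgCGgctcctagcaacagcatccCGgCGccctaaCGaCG
Ube2t: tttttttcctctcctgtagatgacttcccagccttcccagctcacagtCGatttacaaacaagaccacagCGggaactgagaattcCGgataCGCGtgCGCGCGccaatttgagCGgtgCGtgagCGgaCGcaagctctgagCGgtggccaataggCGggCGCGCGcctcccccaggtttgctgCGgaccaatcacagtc
Ube2z: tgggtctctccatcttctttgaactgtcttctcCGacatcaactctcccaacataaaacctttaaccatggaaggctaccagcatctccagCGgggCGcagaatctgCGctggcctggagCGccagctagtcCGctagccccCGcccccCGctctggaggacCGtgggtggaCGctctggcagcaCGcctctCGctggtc
Ube2v2: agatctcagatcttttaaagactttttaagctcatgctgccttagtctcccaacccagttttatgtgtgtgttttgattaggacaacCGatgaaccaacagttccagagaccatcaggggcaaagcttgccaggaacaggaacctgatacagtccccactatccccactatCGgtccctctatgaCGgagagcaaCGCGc

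Ube2g2 and Ube2r2 had a peak in vector, 1-590 and 25RA and none in 10RA, and Ube2e2 had one in vector, 1-590 and 10RA and none in 25RA. Their stretches, at chr10:77457760-77457959 (plus strand), chr4:41135260-41135459 (plus strand) and chr14:3575680-3575879 (plus strand), hold 10, 20 and 22 CpG. The 1-590 peaks cover 120 bases of the Ube2g2 stretch, 76 of the Ube2r2 stretch and 96 of the Ube2e2 stretch. Of the other lists of that set, only 10RA had a peak reaching these stretches, over 103 bases of the Ube2e2 stretch.
Ube2g2: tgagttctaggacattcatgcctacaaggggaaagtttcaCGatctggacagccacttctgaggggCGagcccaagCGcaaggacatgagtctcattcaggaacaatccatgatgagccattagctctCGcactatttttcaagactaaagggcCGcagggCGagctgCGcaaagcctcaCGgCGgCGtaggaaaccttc
Ube2r2: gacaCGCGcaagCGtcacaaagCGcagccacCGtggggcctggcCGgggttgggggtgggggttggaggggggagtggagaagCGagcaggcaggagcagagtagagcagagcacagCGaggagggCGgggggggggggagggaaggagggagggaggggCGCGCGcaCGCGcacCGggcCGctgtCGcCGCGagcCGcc
Ube2e2: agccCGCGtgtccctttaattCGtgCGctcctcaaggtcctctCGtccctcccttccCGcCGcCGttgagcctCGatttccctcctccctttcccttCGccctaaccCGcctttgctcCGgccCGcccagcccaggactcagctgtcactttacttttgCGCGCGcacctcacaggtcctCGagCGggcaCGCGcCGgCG

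Ube2e1, Ube2a and Ube2dnl1 had no promoter peak in any of the 12 lists. The stretches of Ube2a and Ube2dnl1, at chrX:36064628-36064827 (plus strand) and chrX:113814480-113814679 (plus strand), hold 4 CpG each. In GC content the 9 stretches ran from 43.5% in Ube2a to 75.0% in Ube2r2.
Ube2a: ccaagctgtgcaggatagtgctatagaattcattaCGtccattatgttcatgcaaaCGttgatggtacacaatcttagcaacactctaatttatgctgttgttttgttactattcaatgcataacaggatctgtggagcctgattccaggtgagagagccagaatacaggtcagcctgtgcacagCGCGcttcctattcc
Ube2dnl1: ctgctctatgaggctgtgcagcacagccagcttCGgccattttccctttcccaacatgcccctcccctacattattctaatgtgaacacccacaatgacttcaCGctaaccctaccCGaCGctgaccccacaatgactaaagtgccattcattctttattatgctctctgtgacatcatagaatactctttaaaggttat

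Sequence motifs were searched on both strands in the 200 bases directly before the TSS. The GC box GGGCGG was found in 17 of the 38 Ube2 genes (44.7%), against 34.8% of all genes and 55.0% of genes with a CpG-rich promoter. All 17 were among the 30 Ube2 genes with a CpG-rich promoter, and it is those 30 that the 55.0% compares with. The CCAAT box was found in 9 (23.7%, against 32.3% of all genes and of CpG-rich ones), 7 of them among these 30. The CHR element TTTGAA, a motif of cell cycle promoters, was found in 3 (7.89%, against 11.9% of all genes and 7.89% of CpG-rich ones): Ube2d2b, Ube2s and Ube2e1. Of these 3, 2 were among the 30. None of the 3 motifs is part of another, and a match is a description of sequence, not of binding.

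H2AK119ub peaks lay over most Ube2 promoters in vector, 1-590 and 25RA, and over fewer in 10RA. Of 38 Ube2 promoters, 25 had a listed peak in vector, 29 in 1-590, 16 for 10RA and 28 for 25RA. The same call was made for 40.5%, 55.2%, 41.4% and 47.8% of all genes, against 65.8%, 76.3%, 42.1% and 73.7% of the Ube2 genes. The Ube2 share thus stood above the background in vector, 1-590 and 25RA, and near it in 10RA.

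**Figure D1:**
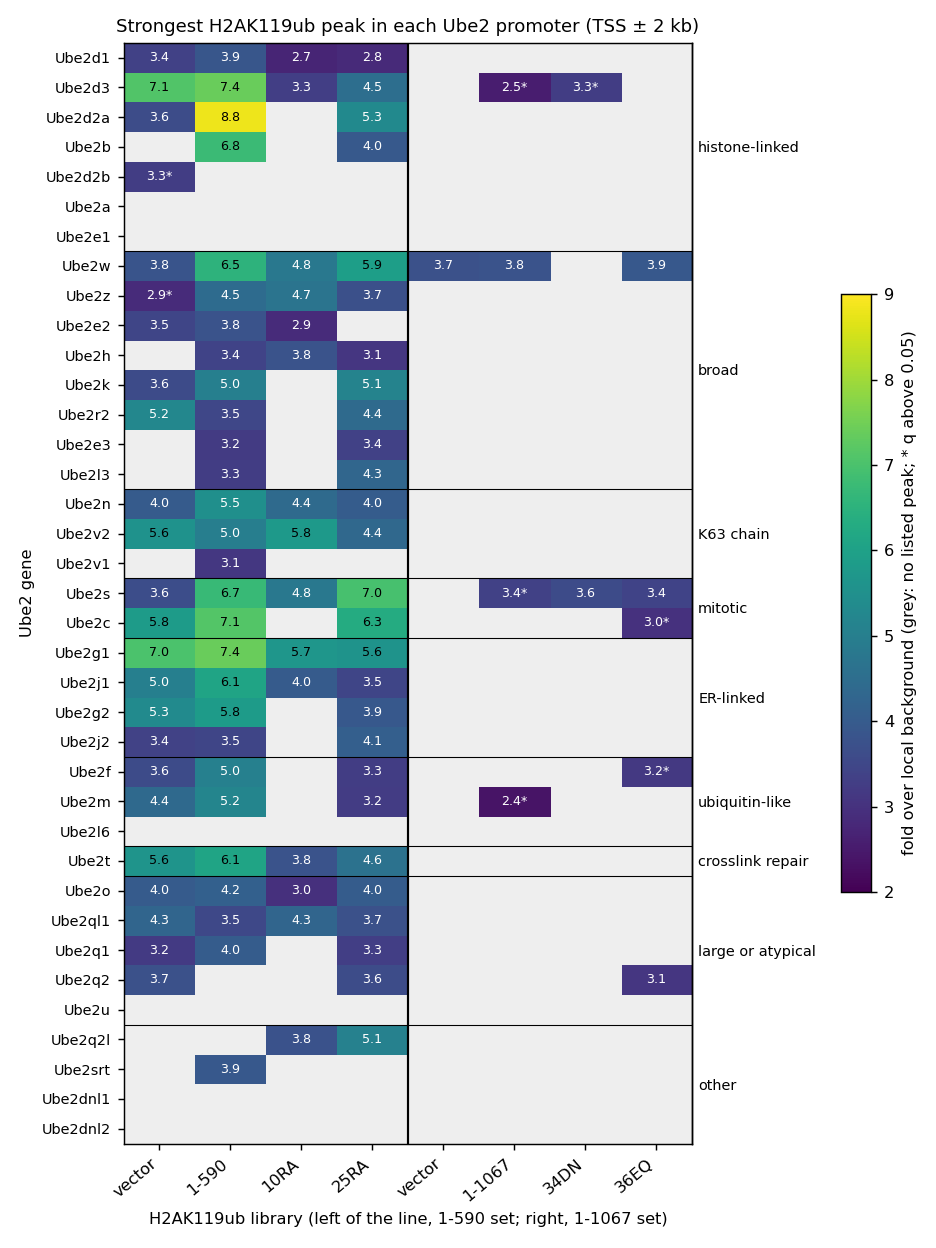
The fold over local background of the strongest H2AK119ub peak in each promoter, for 37 Ube2 genes (rows, grouped by role) and 8 libraries (columns); grey cells have no listed peak and an asterisk marks q above 0.05. Folds were made within each library. The 10RA column holds 15 peaks beside 28 in 1-590 and 27 in 25RA, and the 1-1067 set is nearly empty.

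Most Ube2 promoters with a peak were rich in CpG. The ratio of observed to expected CpG in the 500 bases on each side of the TSS had a median of 0.851 over the Ube2 genes and 0.575 over all genes. At a ratio above 0.6, called CpG-rich here, stood 30 Ube2 genes (78.9%) and 47.7% of all genes; the lowest CpG-rich Ube2 promoter had 0.702 and the highest CpG-poor one 0.532. Among CpG-rich promoters, a peak was listed at 24 of 30 in vector (background 66.2%), 28 in 1-590 (86.6%), 15 in 10RA (64.1%) and 27 in 25RA (73.6%). In 10RA the CpG-rich Ube2 promoters were thus at 50%, below the background, and in vector and 25RA, at 80.0% and 90.0%, above it.

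**Figure D2:**
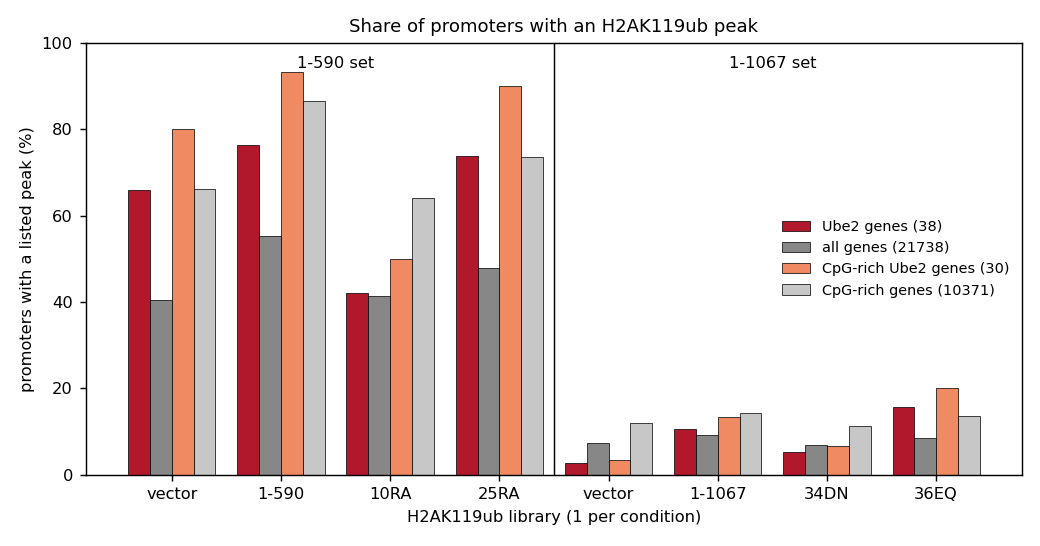
The share of promoters with a listed H2AK119ub peak in percent, for Ube2 genes, all genes and the CpG-rich genes of each, in 8 libraries with 1 per condition. In 10RA the Ube2 bars stand near those of all genes (42.1% beside 41.4%) and, for CpG-rich promoters, below them (50% beside 64.1%), whereas in vector, 1-590 and 25RA they stand above.

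In all 4 libraries of the 1-590 set a peak was listed at 13 Ube2 promoters (26.7% of all genes and 46.5% of CpG-rich genes had this pattern). Among them were Ube2w, Ube2t, Ube2d3, Ube2j1, Ube2s, Ube2d1, Ube2n, Ube2g1, Ube2z, Ube2o, Ube2ql1 and Ube2v2, and the 13 had a CpG ratio of 0.8 to 1.07. Another 11 had a peak in 3 libraries, 5 in 2 and 3 in 1. These patterns held for 14.2%, 11.6% and 11.9% of all genes, and for 21.6%, 14.7% and 10.4% of CpG-rich ones. Ube2l6, Ube2u, Ube2e1, Ube2a, Ube2dnl1 and Ube2dnl2 had none, a pattern found in 35.4% of all genes and 6.82% of CpG-rich ones. Of these 6, Ube2e1 alone was CpG-rich. The main exception on the other side was Ube2q2l, with the lowest CpG ratio of the family, 0.206, and a peak in 10RA and 25RA.

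**Figure D3:**
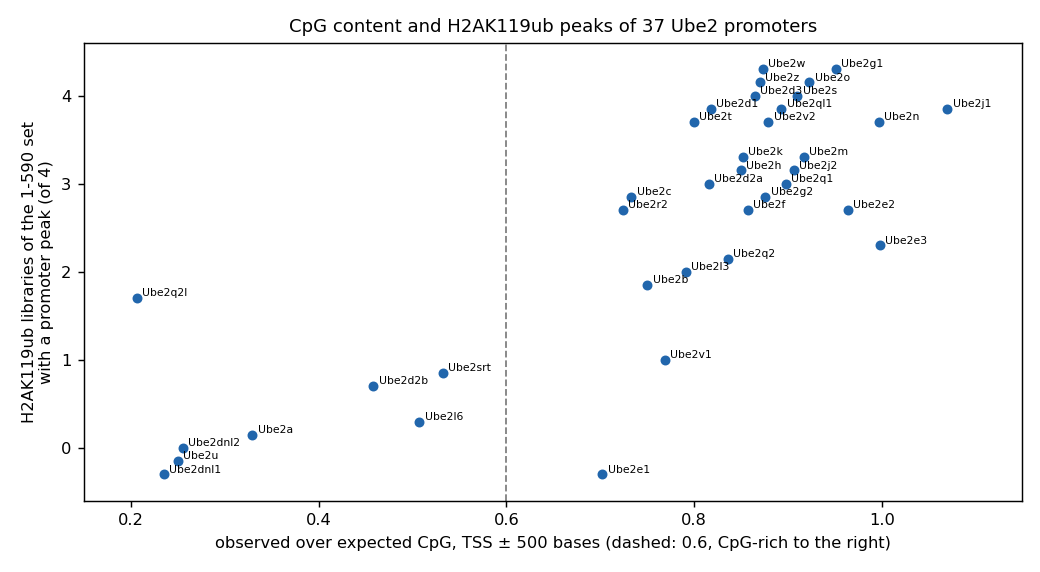
The ratio of observed to expected CpG around the TSS (horizontal) against the number of 1-590-set libraries with a promoter peak (vertical, 0 to 4, points spread for legibility), 1 point for each of 37 Ube2 genes. All genes with peaks in 4 libraries have a ratio of 0.8 or more, and 5 of the 6 genes with none lie left of the dashed line at 0.6.

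Among the E2 enzymes linked to histones, Ube2d1, Ube2d2a and Ube2d3 carried peaks and Ube2a and Ube2e1 did not. Ube2d3 had 16 summit fragments in vector, 36 in 1-590, 8 for 10RA and 15 for 25RA, or levels of 17.6, 17.5, 4.65 and 8.07 times the genome background. Its level was thus near equal in vector and 1-590 and lowest in 10RA. The 1-590 peak spanned chr3:135143699-135145191 (fold 7.4, −log10 q 18.4), with its summit 61 bases downstream of the TSS in a 5′ UTR exon, and the 10RA peak, chr3:135145005-135145281, had its summit 760 bases downstream.

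Ube2d2a had the largest fold of any Ube2 promoter in 1-590. Its summit held 8 fragments in vector, 36 in 1-590 and 17 in 25RA (levels 8.81, 17.5 and 9.14), and no peak was listed in 10RA. The 1-590 peak at chr18:35904477-35905426 had a fold of 8.82 and a −log10 q of 21.5. Ube2d1 was listed in all 4, with 13, 28, 16 and 19 fragments in vector, 1-590, 10RA and 25RA. Its levels, 14.3, 13.6, 9.3 and 10.2, placed 10RA lowest, and the 25RA summit lay 806 bases upstream of the TSS while the 1-590 summit lay 424 bases downstream in an intron (chr10:71120448-71121347). Ube2d2b, a CpG-poor gene with a single annotated start, was listed in vector only, at chr5:107978113-107978416 with 7 fragments and a −log10 q of 1.2, which misses q of 0.05.

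Ube2b, the partner of the H2B ligase Rnf20, was listed in 1-590 at chr11:51891278-51891679 with 24 fragments (fold 6.76, −log10 q 11.8, summit 162 bases upstream) and in 25RA with 11 (fold 3.96). No peak was listed within 2 kb of this TSS in vector or 10RA. A further annotated start of Ube2b lies 3922 bases upstream, and there vector had a peak of 9 fragments (chr11:51894996-51895209, fold 4.05), 1-590 one of 17 (chr11:51895005-51895295, fold 4.26) and 10RA one of 11 (chr11:51895007-51895318, fold 4.29). With any annotated start counted, Ube2b is therefore listed in all 4 libraries. The TSS of Cdkl3, on the other strand, lies between these starts, and a peak there cannot be assigned to either gene.

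Ube2a had no peak at its canonical TSS, but this TSS lies far from the start of its curated transcripts. It stands at position 36064828 of chromosome X, 73.1 kb before the first start of a CCDS transcript of the gene, at position 36137948. The ratio of observed to expected CpG was 0.329 at the former and 0.76 at the latter. At the CCDS start 1-590 had a peak of 14 fragments (chrX:36137650-36138172, fold 3.28) and 10RA one of 14 (chrX:36137756-36138218, fold 3.81), and vector and 25RA had none within 2 kb. In an intron between these starts a peak was listed in 1-590 (chrX:36071449-36071876, 26 fragments), 10RA (18) and 25RA (17).

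Ube2e1 had no peak near any annotated start in any H2AK119ub library, although its CpG ratio was 0.702 and 92.8% of the 31-base words of its promoter occur once in the genome. Its close relatives Ube2e2 and Ube2e3 did carry peaks. Ube2e2 was listed in vector (11 fragments), 1-590 (19, chr14:3575304-3575775) and 10RA (12, chr14:3575498-3575782), and Ube2e3 in 1-590 (22, chr2:78698774-78699075) and 25RA (17). The listing over the mutant forms was thus opposite in these 2 genes, but with equal list lengths or depth scaled Ube2e2 was in neither mutant list.

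Of the 8 E2 enzymes of broad use, all were listed in 1-590, 5 in vector, 4 in 10RA and 7 in 25RA. The shares of all genes were 55.2%, 40.5%, 41.4% and 47.8% in this order. Those of CpG-rich genes were 86.6%, 66.2%, 64.1% and 73.6%. Ube2w, which attaches ubiquitin to protein N-termini, had 9, 26, 13 and 19 fragments in vector, 1-590, 10RA and 25RA (folds 3.81, 6.53, 4.79 and 5.93). Its 10RA level, 7.55, was below those of the others, 9.92, 12.6 and 10.2. Ube2z, the E2 loaded by Uba6, was listed in all 4 with 6, 21, 15 and 13 fragments, the vector peak at a −log10 q of 0.763 and the 10RA peak at chr11:95955961-95956429 with a fold of 4.7. The levels of Ube2z were 6.61, 10.2, 8.72 and 6.99 in the same order.

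Ube2h, the E2 of the CTLH ligase that acts in red cell maturation, was absent from the vector list and listed in 1-590 (chr6:30304315-30304722, 15 fragments, fold 3.41), 10RA (12) and 25RA (13). Ube2l3, which serves HECT and RBR ligases, was listed in 1-590 (chr16:17018952-17019303, 12 fragments, fold 3.27) and 25RA (16). Ube2k and Ube2r2, the latter an E2 of cullin ligases, were listed in vector, 1-590 and 25RA. Ube2k had 7, 18 and 16 fragments there, with the 1-590 peak at chr5:65694264-65695069 (fold 5.01). The levels of Ube2k were near equal, at 7.71, 8.74 and 8.6. Ube2r2 had 13, 14 and 14. In level Ube2r2 stood highest in vector, at 14.3 against 6.8 in 1-590.

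The K63-chain enzyme Ube2n and its inactive partner Ube2v2 were listed in all 4 libraries, and the other partner, Ube2v1, in 1-590 only (chr2:167473738-167474158, 17 fragments, fold 3.13). Ube2n had 15, 33, 21 and 23 fragments in vector, 1-590, 10RA and 25RA, at levels of 16.5, 16.0, 12.2 and 12.4. Ube2v2 had 13, 16, 15 and 13. In 10RA its fold of 5.76 (chr16:15412096-15412350, −log10 q 6.0) was the largest of any Ube2 gene in that list, while its level there, 8.72, was at the median of the Ube2 promoters listed, above 1-590 (7.77) and below vector (14.3).

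The mitotic pair Ube2c and Ube2s, which serve the anaphase-promoting complex, diverged in 10RA. Ube2c had 19 fragments in vector, 44 in 1-590 (chr2:164611405-164611915, fold 7.14, −log10 q 21.4), no listed peak in 10RA and 30 in 25RA (fold 6.32). Its 1-590 level, 21.4, was the highest of the 14 genes absent from 10RA. The level of Ube2c was 20.9 in vector and 16.1 in 25RA. Ube2s had 9, 35, 15 and 30 fragments, with the 25RA peak at chr7:4815485-4815927 carrying the largest fold of the family in that list, 6.96. The levels of Ube2s were 9.92, 17.0, 8.72 and 16.1 in vector, 1-590, 10RA and 25RA.

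All 4 E2 enzymes of endoplasmic reticulum-associated degradation were listed in vector, 1-590 and 25RA, and Ube2g1 and Ube2j1 alone in 10RA. The shares of all genes were 40.5%, 55.2%, 47.8% and 41.4% in this order. Those of CpG-rich genes were 66.2%, 86.6%, 73.6% and 64.1%. Ube2g1 had 16, 34, 19 and 17 fragments in vector, 1-590, 10RA and 25RA, with folds of 7.03, 7.4, 5.69 and 5.59. It was among the 5 largest folds of the family in each of the 4 lists, and its 1-590 peak spanned chr11:72497850-72498593 over the TSS. Ube2j1 had 21, 38, 20 and 20. In level, Ube2g1 stood at 17.6, 16.5, 11.0 and 9.14, and Ube2j1 at 23.1, 18.5, 11.6 and 10.8. Ube2g2 had 19 fragments in vector, 33 in 1-590 (chr10:77457840-77458375, fold 5.84) and 19 in 25RA, and Ube2j2 had 10, 18 and 18. Their levels there were 20.9, 16.0 and 10.2 for Ube2g2, and 11.0, 8.74 and 9.68 for Ube2j2. By level all 4 genes thus stood higher in vector than in 1-590. The same held at 14 of the 23 Ube2 promoters listed in both libraries. Over all genes listed in both it held at 69.5%, and over CpG-rich ones at 66.7%.

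Of the E2 enzymes of ubiquitin-like proteins, both NEDD8 enzymes were absent from 10RA. That list had a peak at 41.4% of all genes and 64.1% of CpG-rich ones. Ube2m had 23, 42 and 22 fragments in vector, 1-590 (chr7:12771653-12772270, fold 5.19) and 25RA, and Ube2f had 11, 29 (chr1:91177753-91178317, fold 5.04) and 15. In level these were 25.3, 20.4 and 11.8 for Ube2m, and 12.1, 14.1 and 8.07 for Ube2f. The ISG15 enzyme Ube2l6, CpG-poor with a ratio of 0.507, had no peak at its canonical TSS; another start, 3875 bases away, had peaks in 10RA (chr2:84633045-84633361, fold 4.38) and 25RA (fold 3.1).

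Ube2t, the E2 of the Fanconi anaemia pathway, was listed in all 4 with 14, 32, 14 and 18 fragments, and its vector fold of 5.63 (chr1:134890196-134890529) was among the 5 largest there. The levels of Ube2t were 15.4, 15.5, 8.13 and 9.68 in vector, 1-590, 10RA and 25RA. Ube2o, the large E2 that acts on BAP1, was also listed in all 4. It had 16 fragments in vector, 33 in 1-590, 15 for 10RA and 23 for 25RA, at levels of 17.6, 16.0, 8.72 and 12.4. The level was thus lowest in 10RA. The 1-590 peak at chr11:116471652-116472406 had a fold of 4.15 and a −log10 q of 8.84, and its summit lay 133 bases downstream of the TSS in a 5′ UTR exon.

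Among the other large or atypical genes, Ube2ql1 had its strongest peak inside its coding exon, 1203 bases downstream of the TSS in 1-590, and 1173, 1199 and 1198 bases downstream in vector, 10RA and 25RA. Its place was thus nearly the same in all 4 lists, and its 27 fragments in 10RA exceeded the 21 in 1-590. Ube2q1 was listed in vector, 1-590 and 25RA. Ube2q2 was listed in vector (chr9:55056385-55056633, 13 fragments, fold 3.74) and 25RA (chr9:55056203-55056601, 17, fold 3.62) and not in 1-590 or 10RA. Ube2q2l was listed in 10RA (chr6:136392321-136392564, 15 fragments, fold 3.76) and 25RA (chr6:136392406-136392943, 22, fold 5.08). Ube2srt was listed in 1-590 only (chr9:56345037-56345270, 11 fragments, fold 3.92), inside its coding exon. For Ube2q2l 74.3% and for Ube2srt 71.8% of 31-base promoter words occur once in the genome, among the lowest values of the family, so the placement of reads there is less certain. Ube2u, with 63.2%, Ube2dnl1 and Ube2dnl2 had no peak.

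The summits of Ube2 peaks lay close to the TSS. Their median distance was 152 bases in vector, 135 in 1-590, 104 for 10RA and 190 for 25RA, against 193, 180, 223 and 211 over all genes with a promoter peak and 173, 160, 190 and 183 over CpG-rich ones. The Ube2 median was thus the farther one in 25RA when set beside CpG-rich genes. Within 500 bases lay 24 of 25, 27 of 29, 14 of 16 and 22 of 28 Ube2 summits, against 75.5%, 76.1%, 68.9% and 70.6% over all genes and 80.7%, 81.5%, 75.1% and 76.6% over CpG-rich ones. In 1-590, 14 of the 29 summits fell in a 5′ UTR exon, 9 upstream, 4 in an intron and 2 in a coding exon. In 25RA more summits, 13 of 28, lay upstream. These places were not counted over all genes, so no background stands beside them.

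**Figure D4:**
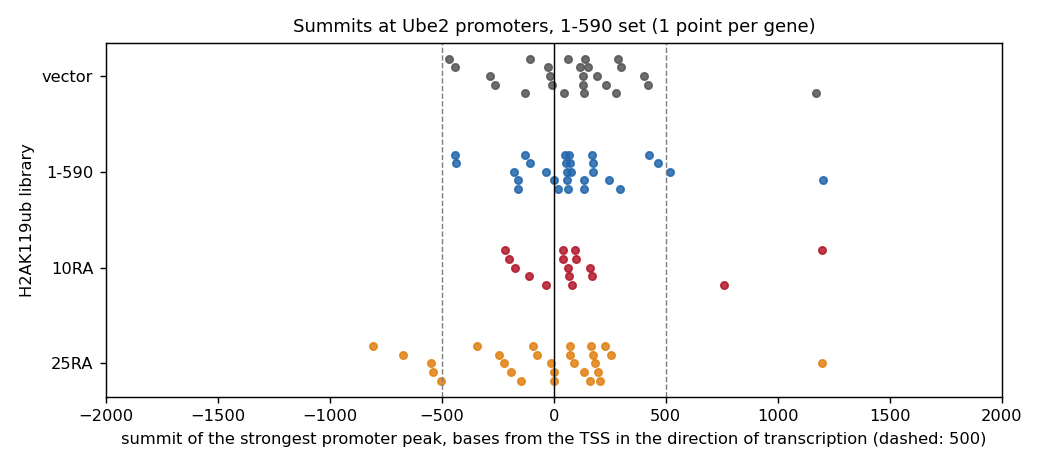
The distance in bases from the TSS to the summit of the strongest promoter peak, positive in the direction of transcription, 1 point for each Ube2 gene with a peak in the 4 H2AK119ub libraries of the 1-590 set. Dashed lines mark 500 bases; 22 of 28 summits lie between them in 25RA and 27 of 29 in 1-590, and the points farthest right, at 1173 to 1203 bases, are Ube2ql1.

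The comparison of 1-590 with vector asks where the mark is listed once truncated ASXL1 accompanies BAP1. At 6 Ube2 promoters a peak was listed in 1-590 and not in vector: Ube2b, Ube2srt, Ube2h, Ube2l3, Ube2e3 and Ube2v1 (17.8% of all genes). The reverse held for 2, Ube2q2 and Ube2d2b (3.03%). The 6 were 20.7% of the 29 Ube2 promoters listed in 1-590, while 32.2% of all genes listed there were absent from vector. The vector library was the shallowest. At the 1-590 level and local background only 2 of the 6 (33.3%), Ube2b and Ube2e3, would have had enough fragments in vector to be listed. Of all genes with this pattern 67.4% would have, and of CpG-rich ones 73.7%. Ube2e3 stood near the limit, at 9.7 expected fragments where 9 suffice. Ube2b stood at 10.6 where 6 suffice, but vector had a peak at its further start, and with that start counted Ube2b is listed in both. For the other 4 a difference was not detectable at this depth. At the 23 Ube2 promoters listed in both, the ratio of the 1-590 to the vector level had a median of 0.949 and ran from 0.475 to 1.98 (median over all such genes 0.862).

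The comparison of 10RA with 1-590 asks what the condensation-impairing mutations alter. A peak was listed in 1-590 and not in 10RA at 14 of 29 Ube2 promoters (18.4% of all genes), and in 10RA and not in 1-590 at 1, Ube2q2l (4.53%). The 14 were 48.3% of the Ube2 promoters listed in 1-590, against 33.3% over all genes listed there. Among CpG-rich promoters these were 13 of 28 Ube2 genes and 29.6% of all genes. The 14 were, by fold in 1-590, Ube2d2a, Ube2c, Ube2b, Ube2g2, Ube2m, Ube2f, Ube2k, Ube2q1, Ube2srt, Ube2r2, Ube2j2, Ube2l3, Ube2e3 and Ube2v1. Ube2b leaves this list if its further start is counted.

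The 14 included both strong and weak peaks of 1-590. Their levels in 1-590 ran from 5.34 to 21.4 with a median of 11.2, and those of the 15 listed in both ran from 7.28 to 19.4 with a median of 15.5; the ranges overlap widely. Over all genes the medians were 10.2 and 14.1. At the 1-590 level, and the same ratio of local to genome background, all 14 would have had enough fragments to be listed in 10RA, as would 98.5% of the genes of the same pattern. Ube2d2a, with 36 fragments in 1-590, would have had 30.1 in 10RA where 9 suffice, and Ube2c, with 44, would have had 36.8 where 12 suffice. Ube2l3 stood nearest to the limit, at 10.0 fragments where 9 suffice. These are expected counts without their sampling spread, at genes picked for being listed in 1-590 and not in 10RA. The cause of the absences was not tested. At the 15 promoters listed in both libraries the median ratio of the 10RA to the 1-590 level was 0.669 (0.266 to 1.54), with 13 of 15 (86.7%) below 1. Over all genes the median was 0.744 with 81.1% below 1, and over CpG-rich ones 0.709 with 85.0%.

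**Figure D5:**
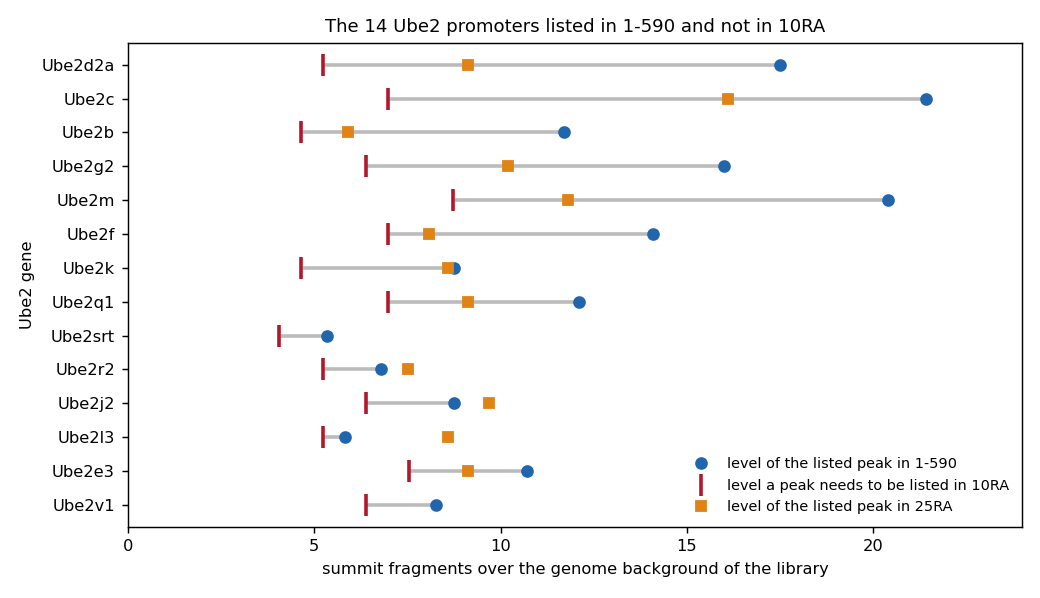
For the 14 Ube2 promoters listed in 1-590 and not in 10RA, the level in 1-590 (circles), the level in 25RA where listed (squares) and the level a peak would need to be listed in 10RA (bars), all in summit fragments over the genome background of the library. Each circle lies right of its bar, from 5.34 against 4.07 for Ube2srt to 21.4 against 6.97 for Ube2c.

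The comparison of 25RA with 1-590 asks the same of the condensation-defective form. The listing of Ube2 promoters differed little there. The level was lower in 25RA at most promoters listed in both, among Ube2 genes and among all genes alike. A peak was listed in 1-590 and not in 25RA at 3, Ube2srt, Ube2e2 and Ube2v1 (12.9% of all genes), and in 25RA and not in 1-590 at 2, Ube2q2l and Ube2q2 (5.53%). The 3 were 10.3% of the Ube2 promoters listed in 1-590, against 23.4% over all genes. At the 26 promoters listed in both, the ratio of the 25RA to the 1-590 level had a median of 0.754 (0.461 to 1.63), with 22 (84.6%) below 1. Over all genes the median was 0.791 with 78.1% below 1, and over CpG-rich ones 0.767 with 82.0%.

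Between the mutant forms, 13 Ube2 promoters were listed in 25RA and not in 10RA (13.8% of all genes) and 1, Ube2e2, in 10RA and not in 25RA (7.31%). With equal list lengths or depth scaled, that 1 gene was Ube2h instead. The 13 were 46.4% of the 28 listed in 25RA, against 28.8% over all genes. Where both forms had a peak, at 15 promoters, the 25RA to 10RA ratio of the levels had a median of 1.1 (0.802 to 1.85), against 1.06 over all genes.

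Against vector, 10RA had a peak of its own at 2 Ube2 promoters, Ube2h and Ube2q2l (11.1% of all genes), and lacked one listed in vector at 11 (10.2%). The 11 were 44.0% of the Ube2 promoters listed in vector, against 25.2% over all genes. Vector had the lower genome background, 0.908 against 1.72 in 10RA. 25RA had a peak of its own at 5, Ube2q2l, Ube2l3, Ube2b, Ube2e3 and Ube2h (14.0%), and lacked one listed in vector at 2, Ube2e2 and Ube2d2b (6.60%). These pairs share the vector or the 1-590 library with those above and are not independent of them.

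In the 1-1067 set few Ube2 promoters carried a peak: 1 in vector (7.44% of all genes), 4 in 1-1067 (9.21%), 2 in 34DN (6.96%) and 6 in 36EQ (8.52%). At the shares of all genes 2.64 to 3.5 of 38 would, so the counts stood within a few genes of the background. They came from 8 genes, all of them CpG-rich. Ube2w was listed in vector (chr1:16688058-16688322, 18 fragments, fold 3.73), 1-1067 (chr1:16689618-16689849, 11) and 36EQ (chr1:16690737-16691089, 15). A weaker 1-1067 peak, chr1:16688137-16688497 (10 fragments, fold 3.3), overlaps the vector peak, and the 36EQ peak overlaps neither. Ube2s was listed in 1-1067 (13 fragments), 34DN (chr7:4815718-4815973, 13, fold 3.6) and 36EQ (15), with summits 210, 284 and 300 bases upstream, where the 1-590 set also had them.

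The other genes were listed in 1 or 2 libraries of that set. Ube2d3 was listed in 1-1067 and 34DN (chr3:135143805-135144041), and its 1-1067 peak, chr3:135142056-135142305, only grazes the edge of the promoter. Ube2m was listed in 1-1067 (fold 2.38), and Ube2f, Ube2q2 and Ube2c in 36EQ (folds 3.16, 3.1 and 3.0). With peaks of q of 0.05 or less alone, 1, 1, 1 and 4 Ube2 promoters remain in vector, 1-1067, 34DN and 36EQ. The shares of all genes were then 3.0%, 4.38%, 3.43% and 4.65%.

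Pairs within the 1-1067 set therefore rest on few genes. In 1-1067 and not in vector were 3 (6.51% of all genes) and the reverse 0 (4.74%). In 34DN and not in vector were 2 (4.81%) and the reverse 1, Ube2w (5.29%). In 36EQ and not in vector were 5 (6.02%) and the reverse 0 (4.94%). Against 1-1067, 34DN had 0 of its own (4.27%) and lacked 2, Ube2w and Ube2m (6.53%), while 36EQ had 4 of its own (5.27%) and lacked 2, Ube2d3 and Ube2m (5.96%).

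No Ube2 promoter held a BAP1 or ASXL1 peak. The count was 0 of 38 in BAP1 1-590 (0.363% of all genes), BAP1 10RA (0.552%), ASXL1 1-590 (1.07%) and ASXL1 10RA (0.455%), where the shares of all genes would give 0.138 to 0.406 genes. No pair of these lists can therefore differ at Ube2 promoters: over all genes 0.492% were in BAP1 10RA and not in BAP1 1-590 and 0.304% the reverse, and 0.386% in ASXL1 10RA and not in ASXL1 1-590 and 0.998% the reverse. The nearest summits were a BAP1 peak of 10RA 3.01 kb upstream of the Ube2z TSS (chr11:95959042-95959308, fold 3.09) and an ASXL1 peak of 1-590 3.42 kb into Ube2q2 (chr9:55059483-55059693, fold 3.34), in an intron. The median distance from a Ube2 TSS to the nearest summit was 122 to 480 kb. Outside promoters, all ChIP peaks within Ube2 genes were intronic, 1 in BAP1 1-590, 5 in BAP1 10RA, 3 in ASXL1 1-590 and 1 in ASXL1 10RA. The same count over all genes was not made. Of these intronic peaks, those of BAP1 1-590 in Ube2g1 and of ASXL1 1-590 in Ube2q2 and Ube2e2 had q of 0.05 or less. The others, all 5 of BAP1 10RA among them, did not. In the ChIP lists as a whole 10.6% to 16.9% of peaks had such a q. The largest fold of the intronic peaks, 3.64, was an ASXL1 1-590 peak in Ube2e2 (chr14:3793821-3794078).

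Other genes of the pathway were read from 4 lists of 41 genes in all: E1 enzymes, ubiquitin and ubiquitin-like modifiers, E2 enzymes with other names, and ligases and deubiquitinases of histones. A peak was listed at 24 of the 41 in vector, 34 in 1-590, 23 for 10RA and 30 for 25RA, beside the same all-gene shares as above. The lists differed in how they stood in 10RA, but each is short and no difference between them was tested. Of 10 E1 genes 5, 8, 8 and 4 were listed in vector, 1-590, 10RA and 25RA, and of 12 modifiers 7, 11, 4 and 10. Modifiers listed in 1-590 and not in 10RA included Ubb, Sumo2, Sumo3, Ufm1 and Ubl5. This pattern held for 18.4% of all genes and for 33.3% of those listed in 1-590. The E1 genes Uba1, Uba2 and Sae1 were among those listed in 10RA and not in 25RA (7.31% of all genes). Sae1 and Uba2 encode the subunits of the SUMO-activating enzyme.

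Of the 9 E2 and E2-like genes with other names, 5, 7, 6 and 7 were listed in the same order, and of the 10 histone ligases and deubiquitinases 7, 8, 5 and 9. Rnf20, the H2B ligase, was listed in 1-590 alone of these libraries (fold 4.13), and Rnf2, the catalytic subunit of Polycomb repressive complex 1, in 1-590 (3.84) and 25RA (3.17). Bap1 itself was listed in all 4. Uba7, Atg7, Isg15, Cdc34b and Ufc1 had no promoter peak in the 1-590 set, a pattern found in 35.4% of all genes. Isg15 is the modifier that Uba7 activates and Ube2l6 conjugates. None of the 41 promoters held a BAP1 or ASXL1 peak.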

How the data were processed

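Per the submitters' processing notes, the build was mm39 and the tools were MACS3 3.0.3, Picard, SAMtools, Bowtie2 2.5.4 and fastp 0.24.0, and CUT&RUN was normalized to an E. coli spike-in per the labels; a control library is not given in the sources used here. The ChIP antibody is anti-BAP1 or anti-ASXL1 in the labels' descriptions and anti-HA in their protocols. Each list as deposited by the authors gives a fold (a ratio of pileup plus 1 to local background plus 1), a −log10 p and a −log10 q per summit, and a score, which in 159554 peaks equals −log10 p times 10 without its decimals, apart from 9 peaks. The deposited lists reach p of 0.001 with no limit on q.

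From fold and −log10 p, summit fragments and local background were solved, which gave whole fragments for 100% of peaks in each list (tolerance 0.001, relative). Whether reads were first subsampled by the spike-in cannot be told from whole fragments. A promoter was called when a listed peak overlapped it by 1 base or more, with symbols of several entries counted once (21757 entries, 21738 symbols). Genes came from GENCODE M39 with GRCm39, the build the notes name as mm39; 650 peaks on other sequences were left out. Overlap and recovery were tested on simulated data and against bedtools 2.31.1. Python 3.11.15, SciPy 1.17.1, NumPy 2.4.6, pysam 0.24.0 and matplotlib 3.10.9 were used. There was no test, as each condition had 1 library.

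The Ube2 genes, their roles and the pathway lists were chosen with earlier results of these data known. Every Ube2 gene enters the counts, and values of some genes and 1 sequence are not reported here. Full peak values are given for the 5 largest folds of each H2AK119ub list, for genes listed in 1-590 and not in vector or a mutant form or the reverse (up to 8 or 6 per direction), for genes of the 1-1067 set, and always for Ube2o, Ube2d1, Ube2d2a, Ube2d3, Ube2a, Ube2b and Ube2e1. Alternatives were promoters of 1 kb and 5 kb, summits inside the promoter, q of 0.05 or less, equal list lengths and any annotated TSS. Scaling to equal depth was added after the data were seen. The score column and RefSeq promoter tables, which follow another build, were not used.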

Additional observations from a re-analysis of the deposited data

How the results depend on the processing

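The counts of the 1-590 set were the steadier ones. Over the 7 alternatives the Ube2 promoters listed numbered 23 to 26 in vector, 28 to 30 in 1-590, 13 to 19 for 10RA and 26 to 29 for 25RA, and those listed in 1-590 and not in 10RA numbered 12 to 16. The shares of all genes moved as well: 37.3% to 45.2% in vector, 48.3% to 59.8% in 1-590, 36.0% to 47.7% for 10RA and 39.1% to 54.2% for 25RA. Of all genes listed in 1-590, 29.5% to 36.1% were not listed in 10RA. Scaling to equal depth, chosen after seeing the data, moved none of the 38 counts by over 1.5 times. Promoters of 1 kb, 5 kb, summits inside the promoter, q of 0.05 or less, equal list lengths and any annotated TSS moved 4, 12, 2, 10, 6 and 3 of them. With 1 kb, the count became 0 in vector of the 1-1067 set, 0 in that vector and not in 34DN, 1 in 34DN and not in 1-1067, and 2 in 10RA and not in 1-590. With 5 kb, it became 1 in BAP1 10RA and 1 in ASXL1 1-590, 1 in each of these and not in its partner list, 4 in 34DN, 2 in vector of the 1-1067 set, 4 in 10RA and not in vector, 2 in 10RA and not in 1-590, 1 in vector and not in 1-1067, 4 in 34DN and not in vector, 2 the reverse, and 2 in 34DN and not in 1-1067. With summits inside the promoter, it became 1 in 34DN and not in 1-1067 and 1 in 1-1067 and not in 36EQ. With q of 0.05 or less, it became 1 in 1-1067, 1 in 34DN, 1 in vector and not in 1-590, 1 in vector and not in 25RA, 0 in 1-1067 and not in vector, 1 in 34DN and not in vector, 3 in 36EQ and not in vector, 1 in 34DN and not in 1-1067, 1 the reverse, and 0 in 1-1067 and not in 36EQ. With equal list lengths, it became 2 in 1-1067, 5 in 1-590 and not in 25RA, 1 in 1-1067 and not in vector, 1 in 34DN and not in 1-1067, 1 the reverse, and 0 in 1-1067 and not in 36EQ. With any annotated TSS, it became 4 in 10RA and not in vector, 2 in 10RA and not in 1-590, and 2 in 10RA and not in 25RA. The cause was not tested beyond the further starts of Ube2a, Ube2b and Ube2l6 described above. No paired analysis was possible because each condition had 1 library. The shallow vector library of the 1-590 set limits which absences there can be read.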
